A study of Mus musculus with 33 samples.

Results

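Mini-colon AKP #iii is a mouse colon tumour organoid line that was re-derived from mini-colons in which crypt tumours were enriched, a mini-colon being a bioengineered colon epithelium grown on a microfluidic scaffold. It is compared here with organoid AKP, cells with the same engineered alleles that were transformed and kept as conventional organoids. Whether both lines began from the same starting culture is not given in the sources used here. The comparison takes every library labelled Mini-colon AKP #iii (3 libraries) and Organoid AKP replicates 1 to 3 (3 libraries), which makes 6 of the 33 libraries in the series. All 6 share the letter E in the code of their deposited data. The meaning of that letter (E or F) is not given in the sources used here, and another 3 organoid AKP libraries with the letter F served as an alternative.

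AKP is the labels' name for the engineered alleles that both lines carry, which include *Apc* fl/fl and *Trp53* fl/fl. In both lines Cre came from a lentiviral OptoCre module, which needs doxycycline and blue light. Organoid AKP cells were induced as organoids and passaged in parallel with the mini-colons. The #iii line was grown out as organoids after induction and tumour growth in the mini-colon. Other lines of the letter E are used for side values. Mini-colon AKP #i and #ii come from mini-colons in which lumen tumours were enriched (called lumen lines below), in vivo AKP organoids were grown from tumours that mice with the AKP alleles and *Cdx2*-creERT2 formed in the colon after tamoxifen, and control organoids carry the alleles without induction. Before RNA isolation the organoids were cultured for 3 days and starved of growth factors for 24 h. Line #iii is 1 line. The study describes the libraries of a line as independent cultures, so the p-values below measure the spread between cultures of a line and not between lines.

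The libraries are 3′ tag libraries, so a gene is read at the end of its transcript and its count does not depend on its length. The libraries of #iii held 2968945 to 5728826 counts and those of organoid AKP 2751409 to 3594398. Ratios of counts are scaled by library size. Counts given without a ratio are raw sums over the 3 libraries of a line, and the libraries differ in depth. Levels are given as CPM, counts scaled to a common library size by the TMM method, which corrects for library composition. A gene is called where the quasi-likelihood test of edgeR gave an adjusted p (Benjamini-Hochberg, over the 13606 genes tested) under 0.05, and log2 fold changes are #iii minus organoid AKP with their SE. Libraries of a line differed by more than counting noise, with a chi-square of 2.54 to 9.30 per degree of freedom. The colon epithelium markers summed to 4078 to 4395 CPM in #iii and 4054 to 4202 CPM in organoid AKP. Of these 12 markers, 4 were lower in #iii, among them *Cdx2* and *Epcam*, and 1 was higher, *Lgals4*. Over all genes tested 8.96% were lower and 9.27% higher. *Cdh1* (E-cadherin), *Krt8*, *Krt18* and *Krt19* (simple epithelial keratins) were not called, and *Cdx1* was at or near 0 in both lines. Markers of other cells were mostly low. Of 15 fibroblast and muscle markers 9 had no count in the 6 libraries, of 15 immune markers 6, of 10 endothelial markers 5, and of 10 neural and glial markers 5. *Ptprc* (CD45) had 1 count in #iii and 0 in organoid AKP, and *Col1a1* had 2 in #iii and 0 in organoid AKP. The immune markers summed to 12.3 to 13.5 CPM in #iii and 16.7 to 19.2 CPM in organoid AKP. The neural and glial markers summed to 2.1 to 4.42 CPM in #iii and 5.79 to 7.15 CPM in organoid AKP. The endothelial markers summed to 8.96 to 11.9 CPM in #iii and 10.4 to 11.9 CPM in organoid AKP, and the fibroblast and muscle markers to 6.95 to 8.29 CPM in #iii and 5.79 to 24.4 CPM in organoid AKP. *Cd68* (a lysosomal protein of macrophages, 77 counts in #iii and 117 in organoid AKP) and *Tubb3* (a neuronal tubulin, 27 counts in #iii and 58 in organoid AKP) were called lower in #iii, *Cd68* not with all 6 organoid AKP libraries. *Vim*, *Egfl7* and *Cd14* had 57, 91 and 54 raw counts in #iii, against 115, 66 and 39 raw counts in organoid AKP, not scaled for depth. The part of these markers in the results below was not tested. In bulk libraries, fewer cells with a transcript and less transcript per cell cannot be told apart.

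p53, the product of *Trp53*, is a transcription factor that raises genes for cell cycle arrest, cell death and DNA repair, and its loss is a late step of colorectal cancer. WNT signalling through beta-catenin maintains intestinal stem cells, and loss of *Apc*, which holds beta-catenin down, leaves that pathway active without a ligand. Epidermal growth factor (EGF) receptors signal to the kinase ERK, whose output includes feedback phosphatases and immediate early genes.

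The targeted genes *Trp53* and *Apc* were examined first. *Trp53* had 10.5, 11.7 and 7.37 CPM in #iii, against 1.36, 1.3 and 3.78 CPM in organoid AKP. The 3 libraries of #iii lay above the 3 of organoid AKP, with a log2 fold change of 2.16 ± 0.31 (SE, adjusted p = 2.82e-07), and 2.92 without organoid replicate 3, the highest of its line. The mean was 16.5 CPM in control organoids, 28.8 CPM in in vivo AKP organoids, and 3.16 and 2.22 CPM in the lumen lines #i and #ii. *Trp53* lies on chromosome 11 at 69469669 to 69482701 (GRCm39, plus strand), and *Wrap53*, which overlaps its start on the other strand, differed by a log2 of 0.04 ± 0.19 (adjusted p = 0.92). *Apc* had 109, 119 and 100.3 CPM in #iii, against 97.4, 106 and 103 CPM in organoid AKP (0.11 ± 0.10, adjusted p = 0.501). The counts are per gene and do not say which exon a tag came from, so they do not show whether an allele was recombined.

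Against organoid AKP, 1261 of 13606 genes were higher in #iii (9.27%) and 1219 were lower (8.96%). Differences of at least 1 log2 unit were more often decreases, with 182 genes higher (1.34%) and 469 lower (3.45%). These shares are the background for the counts of each gene group below. The lists were chosen with earlier results of these data known, so a count set beside the background is a description and not a test. With all 6 organoid AKP libraries 2041 genes were higher and 2116 lower, so list counts given for that setting have a larger background. Leaving out 1 library called fewer genes, 959 to 1191 higher and 899 to 1073 lower, so those list counts have a smaller one.

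The gene furthest above organoid AKP was *Eda2r*, a receptor of the tumour necrosis factor family that binds ectodysplasin A2. It had 19.6, 19.9 and 14 CPM in #iii and no count in any of the 3 organoid AKP libraries. With 220 counts in #iii and 0 in organoid AKP, *Eda2r* was at least 57.9-fold higher, the floor being 3 counts over the organoid libraries (0.309 CPM). *Ano3*, a membrane protein of the anoctamin family, had 89 counts in #iii and 0 in organoid AKP, at least 24.2-fold higher. *Eda2r* averaged 30.4 CPM and *Ano3* 58.2 CPM in control organoids, so both were nearly absent from organoid AKP and present in #iii and in control.

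Most of the other large increases had the same order of levels. *Dglucy*, the mitochondrial D-glutamate cyclase, had 15.8, 19.2 and 24.6 CPM in #iii, against 0.34, 0.325 and 0.539 CPM in organoid AKP, and averaged 53.2 CPM in control. *Mgmt*, which removes methyl groups from guanine in DNA, had 8.29, 7.68 and 13.7 CPM in #iii, against 1.02, 0 and 1.08 CPM in organoid AKP, with a control mean of 33 CPM. *Itga2*, the alpha chain of a collagen-binding integrin, had 8.57, 11.2 and 8.77 CPM in #iii, against 1.36, 0.325 and 2.16 CPM in organoid AKP, with a control mean of 37.7 CPM. *Dglucy*, *Mgmt* and *Itga2* did not overlap between the lines, with log2 fold changes of 5.48 ± 0.44, 3.67 ± 0.46 and 2.84 ± 0.39. The carboxylesterase gene *Ces2g* had 71 counts in #iii and 2 in organoid AKP, a ratio of 28.9 (95% exact interval from 7.71 to 243.3, for counting error only). *Zfp365*, a zinc finger gene, had 22.4, 23.2 and 22.1 CPM in #iii, against 3.06, 3.58 and 2.7 CPM in organoid AKP (2.86 ± 0.26). *Ces2g* belongs to a family of close copies, and its reads could be shared among them.

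*Khdc1a*, *Pde3b* and *Foxl2* departed from this order, being low in control. *Khdc1a*, a KH-domain gene known from mouse eggs and early embryos, had 53.3, 56.7 and 51.6 CPM in #iii, against 7.15, 6.5 and 7.55 CPM in organoid AKP, with 0.244 CPM in control (2.92 ± 0.19, adjusted p = 1.83e-18). *Pde3b*, a phosphodiesterase of cyclic nucleotides, had 12.4, 10.1 and 14.7 CPM in #iii, against 2.72, 0.325 and 0.27 CPM in organoid AKP, with 1.75 CPM in control (3.52 ± 0.45). It was 5.25 log2 units higher without organoid replicate 1. *Foxl2*, a forkhead factor known from the ovary, had 69 counts in #iii and 2 in organoid AKP, a ratio of 28.1 (95% exact interval from 7.49 to 236.6). *Foxl2* averaged 4.07 CPM in the organoid AKP libraries of letter F, and its call was lost when those were added (log2 fold change 1.15).

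**Figure D1:**
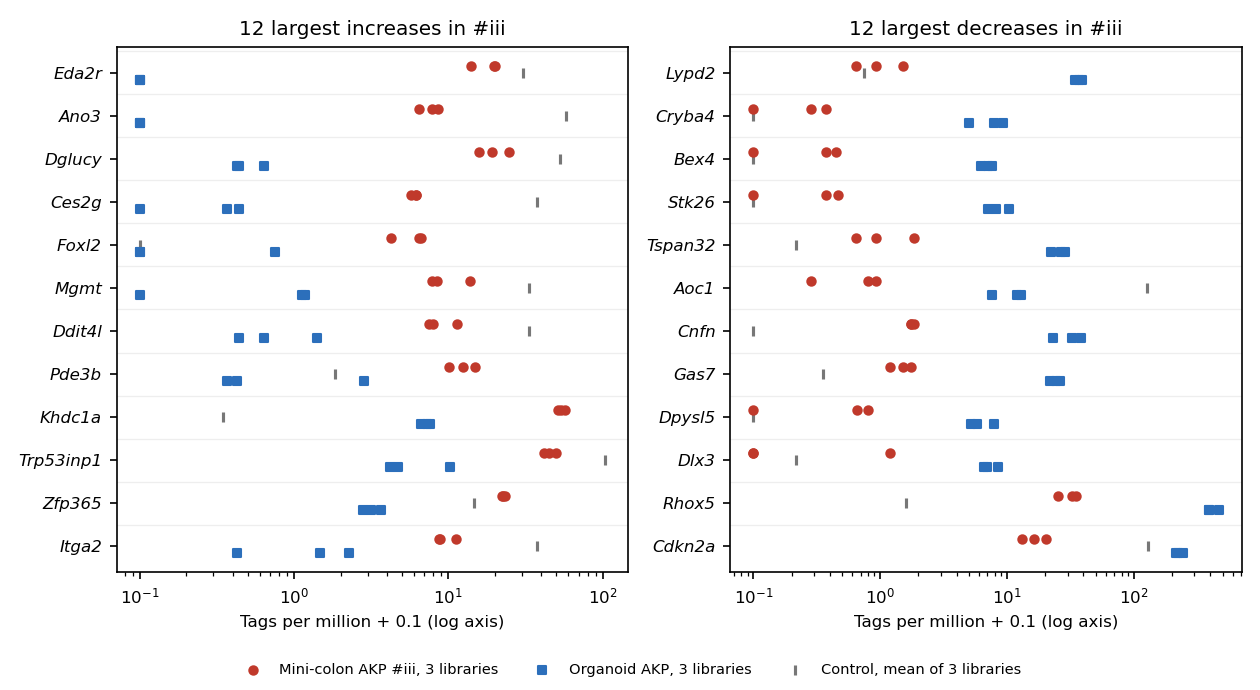
CPM + 0.1 on log axes for the 12 largest increases (left) and 12 largest decreases (right) that met the rule for named genes. Circles are the 3 libraries of #iii, squares the 3 of organoid AKP and ticks the mean of 3 control libraries. The lines do not overlap for any gene shown, and the control ticks lie on the #iii side for *Eda2r*, *Ano3*, *Dglucy* and *Mgmt*.

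The largest decreases were mostly in genes that control organoids hardly express. *Lypd2*, which encodes a Ly6-domain protein, had 0.829, 0.549 and 1.4 CPM in #iii, against 34, 38.7 and 36.7 CPM in organoid AKP (-5.39 ± 0.31, adjusted p = 1.93e-21). *Tspan32*, a tetraspanin, had 0.829, 0.549 and 1.75 CPM in #iii, against 26.6, 22.1 and 28.6 CPM in organoid AKP. *Cnfn*, a cornified envelope gene, had 1.66, 1.65 and 1.75 CPM in #iii, against 38.5, 23.1 and 32.4 CPM in organoid AKP. *Lypd2*, *Tspan32* and *Cnfn* averaged 0.638, 0.117 and 0 CPM in control. *Gas7* had 1.66, 1.1 and 1.4 CPM in #iii, against 25.9, 24.1 and 21.6 CPM in organoid AKP. The homeobox gene *Dlx3* had 6 counts in #iii, all in replicate 2, and 70 in organoid AKP. Another 3 genes had 3 counts or fewer in #iii. *Cryba4*, a lens crystallin, had 2 counts in #iii and 72 in organoid AKP, which is 44.2-fold lower (95% exact interval from 11.8 to 372). *Bex4* had 2 counts in #iii and 67 in organoid AKP, which is 41.1-fold lower (from 10.9 to 346.7). *Stk26*, a kinase of the MST family, had 3 counts in #iii and 81 in organoid AKP, which is 33.2-fold lower (from 10.9 to 164.1). *Aoc1*, the histamine-degrading diamine oxidase, was the exception in control. It had 0.829, 0.183 and 0.702 CPM in #iii, against 7.49, 12.7 and 11.9 CPM in organoid AKP, and a control mean of 126 CPM.

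The X-linked homeobox gene *Rhox5*, known from reproductive tissues, had 34.5, 25.2 and 32.6 CPM in #iii, against 387, 393 and 466 CPM in organoid AKP. Its log2 fold change was -3.78 ± 0.28 (adjusted p = 6.87e-10). Control organoids averaged 1.51 CPM, lines #i and #ii 29.8 and 12.7 CPM, and the organoid AKP libraries of letter F 1248 CPM. Organoid AKP of either letter thus held the highest levels among these groups.

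Among gene lists with at least 12 members tested, the p53 targets had the largest share of increases. Of 42 members tested, 23 were higher in #iii, 0 were lower and 19 were not called, against a background of 9.27% higher. Of the 23, 13 differed by at least 1 log2 unit. The median log2 fold change over the 42 members was 0.55, against 0 over all genes tested, and 0.50 with the 3 members that had a line at 0 set to their bounds. The count was 22 to 24 when any 1 library was left out, and 25 with all 6 organoid AKP libraries, where 1 member was lower.

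Among genes that halt the cell cycle, *Cdkn1a* (p21, an inhibitor of cyclin-dependent kinases) had 319, 313 and 302 CPM in #iii, against 50.7, 88.4 and 47.7 CPM in organoid AKP. The lines were well apart, with 2.33 ± 0.15 log2 units between them (adjusted p = 2.06e-12). *Cdkn1a* averaged 2305 CPM in control, 38.9 CPM in in vivo AKP of letter E, and 251 CPM in the organoid AKP libraries of letter F. With all 6 organoid AKP libraries the log2 fold change of *Cdkn1a* was 0.96. *Ccng1* (cyclin G1) had 126, 115 and 105 CPM in #iii, against 21.1, 18.9 and 21.6 CPM in organoid AKP. *Ccng1* averaged 27.3 CPM in the organoid AKP libraries of letter F and 19.2 CPM in in vivo AKP of letter E. Its log2 fold change was 2.49 ± 0.13 (adjusted p = 3.57e-23). *Nudcd2* overlaps the end of *Ccng1* on the opposite strand, and was not called (0.19 ± 0.10, adjusted p = 0.185). *Btg2*, an antiproliferative gene, had 13.5, 15 and 11.2 CPM in #iii, against 6.47, 7.15 and 4.58 CPM in organoid AKP. In in vivo AKP of letter E *Btg2* averaged 24.75 CPM. A link between *Trp53* counts and target levels was not tested.

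Of the members with roles in feedback and cell death, *Mdm2*, *Bbc3* and *Bax* were higher, while *Pmaip1* was not called and *Fas* rests on few counts. *Mdm2*, the ubiquitin ligase that degrades p53, had 144, 114 and 153 CPM in #iii, against 66.7, 79 and 86.8 CPM in organoid AKP (0.80 ± 0.12, adjusted p = 6.26e-07). *Bbc3* (PUMA, a trigger of mitochondrial cell death) had 32, 31.6 and 34 CPM in #iii, against 11.2, 14.9 and 12.4 CPM in organoid AKP (1.33 ± 0.17). *Bax*, a pore-forming protein of the same pathway, had 12.2, 12.6 and 14 CPM in #iii, against 6.13, 6.83 and 6.74 CPM in organoid AKP (0.96 ± 0.23). None of *Mdm2*, *Bbc3* and *Bax* overlapped between the lines. The death receptor gene *Fas* had 8 counts in #iii and 0 in organoid AKP, at least 2.43-fold higher. Its call was lost when any 1 library other than #iii replicate 2 was left out. *Pmaip1* (NOXA) had 22.9, 23.9 and 29.8 CPM in #iii, against 21.1, 27.3 and 22.6 CPM in organoid AKP, which overlap (adjusted p = 0.785).

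Other members called higher differed by up to 3.57 log2 units among those with a count in both lines. *Trp53inp1*, a p53-induced nuclear protein, had 50.02, 41.9 and 44.9 CPM in #iii, against 4.08, 10.1 and 4.58 CPM in organoid AKP. *Ddit4l*, a relative of the mTOR inhibitor REDD1, had 11.3, 7.86 and 7.37 CPM in #iii, against 0.34, 1.3 and 0.539 CPM in organoid AKP. *Zmat3*, an RNA-binding zinc finger protein, had 59.1, 61.1 and 52.6 CPM in #iii, against 18.4, 20.1 and 18.3 CPM in organoid AKP. *Trp53inp1*, *Ddit4l* and *Zmat3* were higher by 2.87 ± 0.23, 3.57 ± 0.41 and 1.61 ± 0.14 log2 units. *Ephx1*, the microsomal epoxide hydrolase, had 61.6, 64.9 and 51.9 CPM in #iii, against 6.81, 12.7 and 10.8 CPM in organoid AKP (2.56 ± 0.18), while its convergent neighbour *Tmem63a* was lower (-0.47 ± 0.09). *Phlda3*, an inhibitor of AKT, had 22.4, 18.3 and 14.7 CPM in #iii, against 3.75, 5.53 and 5.66 CPM in organoid AKP. The *Phlda3* difference of 1.88 ± 0.26 became 0.74 with all 6 organoid AKP libraries and was no longer called. *Psrc1*, *Aen*, *Polk*, *Ercc5*, *Gdf15*, *Ei24* and *Plk2* were higher by 0.50 to 1.36 log2 units. *Abcb1a*, a drug efflux pump, was higher by 1.30 ± 0.39 and lost its call without #iii replicate 2, organoid replicate 1 or organoid replicate 3. *Rap2b*, a small GTPase, was higher by 0.81 ± 0.12 and lost its call with all 6 organoid AKP libraries.

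The 19 members that were not called included further stress, repair and metabolic targets. *Sesn1* (sestrin 1) had 2.49, 2.93 and 1.4 CPM in #iii, against 6.47, 4.55 and 3.51 CPM in organoid AKP (-0.97 ± 0.38, adjusted p = 0.0685), and was lower without organoid replicate 3 and with all 6 organoid AKP libraries. *Sesn2* was at 0.30 ± 0.13, *Perp* at 0.23 ± 0.09, *Tigar* at 0.13 ± 0.12, *Ddb2* at -0.11 ± 0.20 and *Rrm2b* at -0.01 ± 0.24 log2 units. *Sesn2* and *Tigar* were called higher with all 6 organoid AKP libraries, and *Perp* without organoid replicate 1, organoid replicate 3 or #iii replicate 2.

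**Figure D2:**
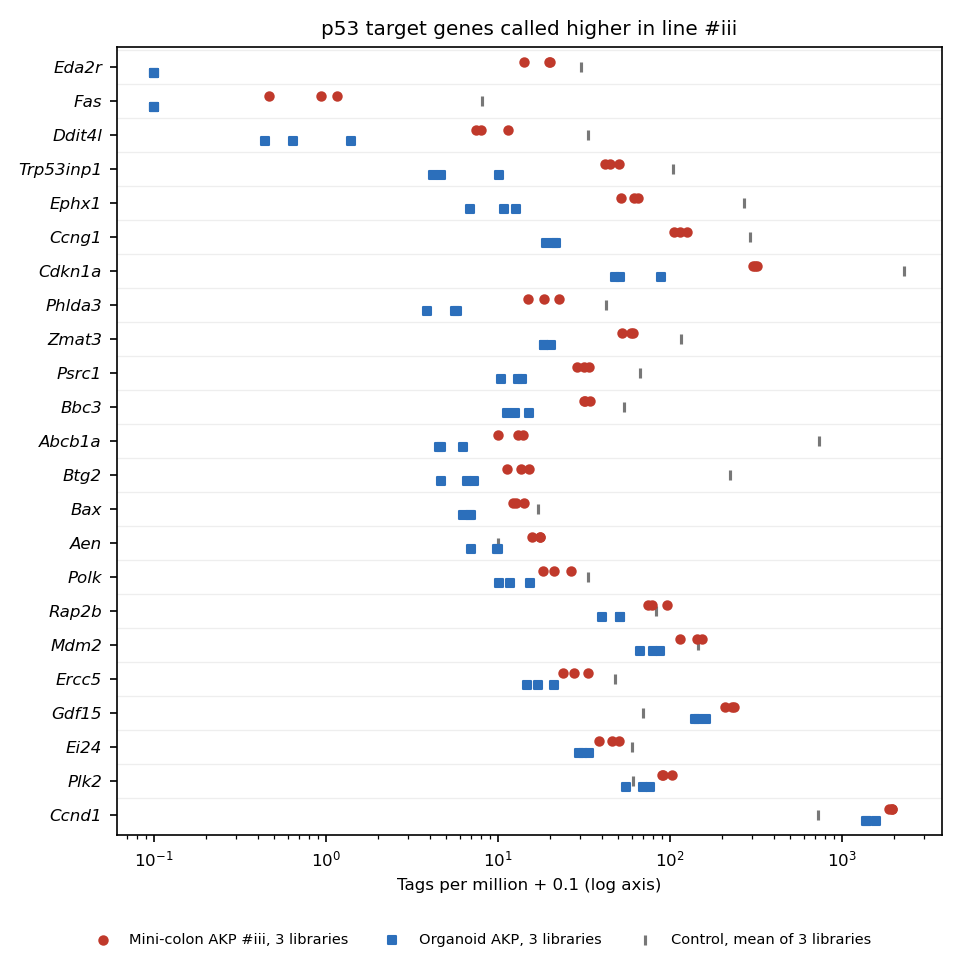
CPM + 0.1 on a log axis for the 23 p53 targets called higher in #iii, ordered by log2 fold change. Circles are the 3 libraries of #iii, squares the 3 of organoid AKP and ticks the mean of 3 control libraries. The #iii libraries lie between organoid AKP and control for *Ccng1*, *Ephx1*, *Cdkn1a* and *Zmat3*, and above both for *Gdf15*, *Plk2* and *Ccnd1*.

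Promoter sequences are shown for 4 of the targets called higher. They are those with the smallest p among members called higher whose promoter held the p53 motif described here. Holding the motif was thus a condition for being shown. RefSeq promoters (GRCm38.p6, from 250 bases before to 50 bases after the start) matched 33 of the 42 members. The p53 decamer, the 10-base unit of the p53 response element, was searched by exact match, and as it is its own reverse complement 1 scan covers both strands. It was present in 12 of the 33 promoters, against 9.55% of all 27025 genes in the table. A paired site was searched with a looser decamer, whose central bases could be any and not only A or T. At most 1 base could lie between the paired decamers. Such a site was present in 1 of the 33, against 45 of all genes (0.167%). The list was made of p53 targets, so its excess over all genes was not a test of the difference between the lines. The single decamer was in 9 of 20 promoters of members called higher and in 3 of 13 of members not called. A match is a description of the letters and not a binding site. In the promoters below, written 5′ to 3′ on the strand of the gene, capitals mark the decamers.
Ccng1 (chr11:40755237-40755536, minus strand): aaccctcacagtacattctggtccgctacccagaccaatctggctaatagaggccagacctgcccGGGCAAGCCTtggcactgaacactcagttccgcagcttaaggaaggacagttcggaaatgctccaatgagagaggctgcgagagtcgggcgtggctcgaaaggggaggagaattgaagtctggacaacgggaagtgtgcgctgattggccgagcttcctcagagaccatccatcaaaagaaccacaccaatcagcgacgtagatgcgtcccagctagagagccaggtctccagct
Cdkn1a (chr17:29090729-29091028, plus strand): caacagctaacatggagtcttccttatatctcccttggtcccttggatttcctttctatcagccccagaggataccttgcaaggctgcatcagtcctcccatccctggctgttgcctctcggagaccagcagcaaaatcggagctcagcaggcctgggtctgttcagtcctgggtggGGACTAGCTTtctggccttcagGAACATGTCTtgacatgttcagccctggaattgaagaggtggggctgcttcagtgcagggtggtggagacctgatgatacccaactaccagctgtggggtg
Ddit4l (chr3:137623422-137623721, plus strand): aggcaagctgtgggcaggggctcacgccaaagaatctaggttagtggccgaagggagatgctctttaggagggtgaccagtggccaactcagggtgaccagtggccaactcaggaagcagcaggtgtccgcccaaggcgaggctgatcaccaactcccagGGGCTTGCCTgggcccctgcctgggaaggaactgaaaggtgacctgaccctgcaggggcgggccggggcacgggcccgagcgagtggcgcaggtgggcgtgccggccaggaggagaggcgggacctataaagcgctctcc
Mdm2 (chr10:117710709-117711008, minus strand): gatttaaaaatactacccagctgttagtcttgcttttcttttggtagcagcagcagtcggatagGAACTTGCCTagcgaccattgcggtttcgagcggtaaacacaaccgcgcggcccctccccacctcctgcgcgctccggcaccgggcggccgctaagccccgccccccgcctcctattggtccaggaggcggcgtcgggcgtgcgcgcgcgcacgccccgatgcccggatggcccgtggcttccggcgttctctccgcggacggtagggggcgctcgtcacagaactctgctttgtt
The decamer began 185 bases before the start in *Ccng1*, at 73 and 51 bases before it in *Cdkn1a*, 90 bases before it in *Ddit4l* and 186 bases before it in *Mdm2*.

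The *Cdkn2a* and *Cdkn2b* pair moved the other way. *Cdkn2a*, which encodes the kinase inhibitor p16INK4a and the MDM2 inhibitor p19ARF, had 13, 20.1 and 16.1 CPM in #iii, against 214, 223 and 243 CPM in organoid AKP. Its log2 fold change was -3.75 ± 0.11 (adjusted p = 4.86e-35). *Cdkn2b* (p15INK4b) had 0.829, 1.65 and 1.75 CPM in #iii, against 21.4, 16.2 and 12.9 CPM in organoid AKP (-3.53 ± 0.30, adjusted p = 2.82e-14). The 3 libraries of #iii were below every library of the other lines of letter E for both genes, as shown in the plot of 9 genes across lines. *Cdkn2a* averaged 129.7 CPM in control, 753 CPM in in vivo AKP, and 299 and 290.1 CPM in lines #i and #ii. In the other crypt-enriched lines #iv and #v, which carry the letter F, it averaged 132 and 61.7 CPM. The genes are neighbours on chromosome 4, *Cdkn2a* at 89192708 to 89212890 and *Cdkn2b* at 89223204 to 89229276 (GRCm39, minus strand). The flanking genes, chosen after their values were seen, were not called lower by edgeR with all libraries. *Mtap*, at lower coordinates, was at -0.22 ± 0.09 (adjusted p = 0.0686) and was called lower by DESeq2 and without organoid replicate 2, and *Klhl9* further out was at -0.09 ± 0.14. *Elavl2*, on the other side, was higher at 1.11 ± 0.14 (adjusted p = 5.79e-09).

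Over all 19 CDK inhibitor and senescence genes, 3 were higher in #iii and 5 lower, or 3 lower without organoid replicate 1. Beside *Cdkn1a*, *Rb1* (the retinoblastoma protein) was higher (0.81 ± 0.18). Beside *Cdkn2a* and *Cdkn2b*, the related *Cdkn2c* and *Cdkn2d* were lower (-0.66 ± 0.21 and -0.50 ± 0.15). *Cdkn2c* lost its call without #iii replicate 1 or organoid replicate 1, and *Cdkn2d* without #iii replicate 2 or organoid replicate 1. *Prdm16*, a transcription regulator that is also in the list, had 1.93, 1.46 and 0.702 CPM in #iii, against 16, 13 and 8.09 CPM in organoid AKP (-3.07 ± 0.37). The third gene called higher was *Hmga2*, a chromatin protein of embryonic tissue (0.38 ± 0.09), whose direction turned with all 6 organoid AKP libraries (-0.25).

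WNT targets were mostly lower in #iii. Of 27 tested, 14 were lower and 1 higher, against backgrounds of 8.96% and 9.27%, with a median log2 fold change of -0.55. *Lgr5*, the R-spondin receptor that marks intestinal stem cells, had 27.6, 39.5 and 26.7 CPM in #iii, against 78.6, 103 and 73.9 CPM in organoid AKP (-1.40 ± 0.14, adjusted p = 2.04e-10). *Lef1*, a DNA partner of beta-catenin, had 1.1, 1.83 and 2.46 CPM in #iii, against 6.47, 19.8 and 8.9 CPM in organoid AKP (-2.71 ± 0.36). *Sp5*, a WNT-induced repressor, had 9.95, 13.5 and 9.47 CPM in #iii, against 22.8, 28.9 and 21.3 CPM in organoid AKP (-1.09 ± 0.20). None of *Lgr5*, *Lef1* and *Sp5* overlapped between the lines. *Ascl2*, the stem cell transcription factor, differed by -0.82 ± 0.15, *Cd44* by -0.55 ± 0.10 and *Tnfrsf19* (TROY) by -0.68 ± 0.10. Control organoids had 7.1 CPM of *Lgr5* and 0 CPM of *Lef1*, so #iii remained above control for both.

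Organoid replicate 2 stood high in several of these genes. *Nkd1*, a feedback inhibitor, had 13, 10.6 and 8.77 CPM in #iii, against 12.3, 52.7 and 15.9 CPM in organoid AKP, and *Axin2*, another one, had 67.2, 89.6 and 55.1 CPM in #iii, against 90.2, 144 and 99.8 CPM in organoid AKP. Without organoid replicate 2, 10 of the 27 targets were lower, and *Nkd1*, *Axin2*, *Apcdd1* and *Ephb3* were no longer called. *Axin2* also lost its call without #iii replicate 1 or #iii replicate 3, *Nkd1* without any 1 of the #iii libraries, and *Ephb3* without organoid replicate 3, #iii replicate 1 or #iii replicate 2. *Lgr5*, *Lef1*, *Sp5*, *Ascl2*, *Cd44* and *Tnfrsf19* stayed called in every alternative run. The one target called higher was *Ccnd1* (cyclin D1), with 1948, 1959 and 1877 CPM in #iii, against 1383, 1402 and 1579 CPM in organoid AKP (0.41 ± 0.09). *Ccnd1* is also in the p53 list.

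Of 27 intestinal stem cell markers 8 were lower and 1 higher. *Lrig1*, an inhibitor of EGF receptors, had 16.9, 18.1 and 13 CPM in #iii, against 41.5, 40.3 and 29.1 CPM in organoid AKP (-1.17 ± 0.23). *Smoc2*, a secreted matrix protein, had 15.8, 28.2 and 22.4 CPM in #iii, against 35.4, 67 and 48 CPM in organoid AKP, and was no longer called with all 6 organoid AKP libraries. *Lgr6*, a relative of *Lgr5* outside the list, had 3.87, 9.51 and 9.47 CPM in #iii, against 22.8, 31.9 and 27.8 CPM in organoid AKP (-1.83 ± 0.23). *Bmi1*, a polycomb gene, was the marker called higher (0.45 ± 0.12).

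Of 13 genes for EGF receptors, ligands and their inhibitors, 5 were higher in #iii and 2 lower, against backgrounds of 9.27% and 8.96%. With all 6 organoid AKP libraries 4 were higher and 4 lower, and the median log2 fold change of the list was -0.30, against 0.32 with letter E alone. *Areg* (amphiregulin) had 246, 221 and 216 CPM in #iii, against 106, 78 and 80.9 CPM in organoid AKP (1.37 ± 0.18, adjusted p = 4.6e-06). *Ereg* (epiregulin) had 77.1, 79.5 and 90.1 CPM in #iii, against 47, 29.6 and 35.9 CPM in organoid AKP (1.13 ± 0.13). *Hbegf*, the heparin-binding ligand, had 208, 187 and 214 CPM in #iii, against 118, 119 and 138 CPM in organoid AKP (0.70 ± 0.11). For *Areg*, *Ereg* and *Hbegf* every #iii library was above every organoid AKP library. The ligand *Btc* (betacellulin) had 61.3, 62.9 and 67.7 CPM in #iii, against 36.8, 46.5 and 36.7 CPM in organoid AKP (0.68 ± 0.12), and 87.4 CPM on average in the organoid AKP libraries of letter F, with which its direction turned (-0.04). The receptor *Egfr* was higher by 0.70 ± 0.18 and lost its call without organoid replicate 3. The 2 genes called lower were the receptor inhibitors *Lrig1* and *Lrig3*, the second of which lost its call without #iii replicate 1.

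Of 27 ERK output and feedback genes 9 were higher and 0 lower. *Dusp6*, the ERK phosphatase, had 442, 394 and 397 CPM in #iii, against 305, 254 and 302 CPM in organoid AKP (0.52 ± 0.08). *Fosl1*, a FOS-family transcription factor, had 109, 76.6 and 104 CPM in #iii, against 72.5, 68.6 and 65 CPM in organoid AKP (0.48 ± 0.12). *Egr1*, an immediate early factor, had 426, 357 and 401 CPM in #iii, against 246, 286 and 288 CPM in organoid AKP (0.53 ± 0.10). These differences were small beside those of the p53 targets, and with all 6 organoid AKP libraries 6 members were higher and 1 lower. Of 20 AP-1 and immediate early genes 6 were higher and 1 lower, against 3 higher and 5 lower with all 6 organoid AKP libraries. *Klf6*, a zinc finger factor of that group, had 697, 659.9 and 694 CPM in #iii, against 422, 451 and 423 CPM in organoid AKP (0.66 ± 0.09). *Egr1* and *Junb* were not called with the added libraries, while *Dusp6*, *Fosl1* and *Klf6* stayed called.

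**Figure D3:**
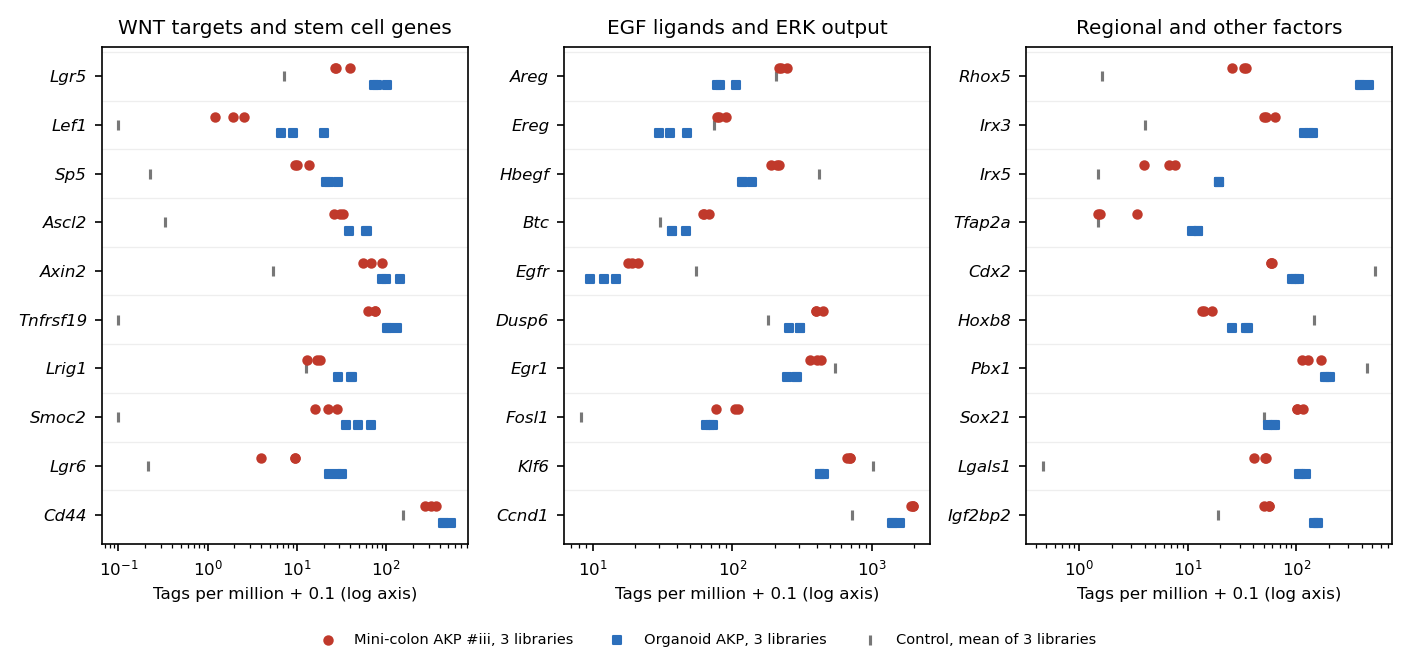
CPM + 0.1 on log axes for WNT targets and stem cell genes (left), EGF ligands, the EGF receptor and ERK output genes (middle), and regional identity factors with other genes (right). Circles are the 3 libraries of #iii, squares the 3 of organoid AKP and ticks the mean of 3 control libraries. The #iii libraries lie below organoid AKP for *Lgr5*, *Lef1* and *Lgr6* and above it for *Areg*, *Ereg* and *Klf6*.

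Regional identity factors were more often lower than higher, with 12 lower and 2 higher of 39, against backgrounds of 8.96% and 9.27%. *Rhox5* and *Dlx3*, already named above among the decreases, are among the 12. The list was chosen with earlier results of these data known, so its excess over the background was not a test. The Iroquois homeobox genes *Irx3* and *Irx5*, which are neighbours in the mouse genome, were both lower. *Irx3* had 52.2, 50.3 and 63.8 CPM in #iii, against 129, 116 and 143 CPM in organoid AKP (-1.24 ± 0.11). *Irx5* had 7.46, 6.58 and 3.86 CPM in #iii, against 19.4, 19.2 and 19.4 CPM in organoid AKP (-1.65 ± 0.23). *Irx3* varied widely among the other lines, with 164 CPM in #i, 6.33 CPM in #ii and 3.97 CPM in control. *Tfap2a*, a factor of surface ectoderm and neural crest, had 3.32, 1.46 and 1.4 CPM in #iii, against 12.3, 12.3 and 10.8 CPM in organoid AKP (-2.53 ± 0.32). *Cdx2*, the intestinal master factor, had 58.9, 59.2 and 58.2 CPM in #iii, against 106, 96.5 and 90.3 CPM in organoid AKP (-0.73 ± 0.14), and a control mean of 533 CPM. *Sox21*, a SOX-family factor, was higher, with 102, 116 and 100.3 CPM in #iii, against 54.8, 61.4 and 63.1 CPM in organoid AKP (0.83 ± 0.10).

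Of 24 HOX genes tested, 4 were lower and 0 higher. *Hoxb8* had 16.6, 13.9 and 13.3 CPM in #iii, against 34.4, 36.1 and 25.4 CPM in organoid AKP (-1.12 ± 0.19). *Hoxa3*, *Hoxb5* and *Hoxb6* were lower by smaller amounts, and each lost its call without at least 1 of the 6 libraries. Without organoid replicate 2, #iii replicate 1 or #iii replicate 3, 2 HOX genes were lower, and 7 were with all 6 organoid AKP libraries.

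The genes of ribosome production that were called were mostly higher in #iii. Of 33 MYC, nucleolar and ribosome biogenesis genes 16 were higher and 1 lower, against a background of 9.27% higher. None reached 1 log2 unit, and the median was 0.34. *Ncl* (nucleolin) had 4379, 4069 and 4343 CPM in #iii, against 2913, 3217 and 3228 CPM in organoid AKP (0.45 ± 0.07, adjusted p = 2.14e-06). *Npm1* (nucleophosmin) had 2523, 2132 and 2571 CPM in #iii, against 1724, 1692 and 1760 CPM in organoid AKP (0.48 ± 0.07). *Wdr12* and *Utp20*, both factors of ribosomal RNA processing, were higher by 0.74 ± 0.12 and 0.69 ± 0.11. *Myc* itself had 39.8, 50.8 and 26.3 CPM in #iii, against 32, 42.3 and 29.4 CPM in organoid AKP, which overlap (adjusted p = 0.753). The one member called lower was *Max*, the partner of MYC (-0.31 ± 0.10), whose libraries overlapped between the lines and whose call was lost without organoid replicate 2, organoid replicate 3 or #iii replicate 3.

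The mitotic genes that were called were lower, in small steps. Of 33 tested, 13 were lower and 0 higher, none by 1 log2 unit, and the median was -0.23. *Bub1b*, a spindle checkpoint kinase, had 45, 47 and 35.8 CPM in #iii, against 57.5, 76.7 and 70.1 CPM in organoid AKP (-0.66 ± 0.14). *Ccnb2* (cyclin B2) had 146, 124 and 125 CPM in #iii, against 177, 184 and 182 CPM in organoid AKP (-0.46 ± 0.09). *Tpx2*, a spindle assembly factor, had 247, 255 and 238 CPM in #iii, against 319.7, 346 and 286 CPM in organoid AKP (-0.36 ± 0.09). *Bub1b*, *Ccnb2* and *Tpx2* did not overlap between the lines, and averaged 9.22, 24.1 and 38.7 CPM in control. The count was 6 without organoid replicate 2 and 8 without #iii replicate 3. Over all genes the lower calls also fell in these runs, from 1219 to 899 and 952. *Mki67* was at -0.23 ± 0.13 (adjusted p = 0.258). DNA replication and G1-S genes stayed near the background, with 1 higher and 1 lower of 39.

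The lipid synthesis genes that were called were mostly lower, while 15 of 26 and 22 of 32 tested members of the lists below were not called. Of 26 genes of cholesterol synthesis and uptake, 11 were lower and 0 higher, against a background of 8.96% lower. *Insig1*, which restrains the SREBP pathway, had 45.6, 37.7 and 45.6 CPM in #iii, against 78.3, 106 and 91.2 CPM in organoid AKP (-1.11 ± 0.16). *Nsdhl*, an enzyme of sterol synthesis, differed by -0.58 ± 0.13. The count was 6 without organoid replicate 2 or without #iii replicate 2, and 7 without #iii replicate 3. Of 32 genes of fatty acid synthesis and esterification 8 were lower and 2 higher. *Scd1*, a stearoyl-CoA desaturase, had 15.5, 19.8 and 14.7 CPM in #iii, against 32.7, 45.2 and 45 CPM in organoid AKP (-1.27 ± 0.17). *Scd2* had 382, 352 and 313 CPM in #iii, against 592, 664 and 547 CPM in organoid AKP (-0.78 ± 0.09). *Fads2*, another desaturase, was lower (-0.89 ± 0.11). All 3 desaturase genes separated the lines without overlap, and 4 members of the list were lower without organoid replicate 2 or replicate 3 and 5 without #iii replicate 3.

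Of 34 glycolysis and hypoxia genes 12 were lower and 1 higher. *Car12*, a carbonic anhydrase, had 5.25, 6.58 and 3.86 CPM in #iii, against 19.1, 14.6 and 18.1 CPM in organoid AKP (-1.65 ± 0.24). *Pdk1*, which blocks entry of pyruvate into the citrate cycle, had 59.1, 57.6 and 47 CPM in #iii, against 84.1, 95.9 and 77.7 CPM in organoid AKP (-0.64 ± 0.13). The member called higher was *Hif1a*, the hypoxia-inducible factor itself (0.34 ± 0.09). Organoid replicate 2 was the highest library for *Ankrd37*, *Aldoc* and *Car9*. The count of lower genes was 6 without that library and 25 with all 6 organoid AKP libraries.

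Of 44 antioxidant and glutathione genes 7 were higher in #iii and 9 lower. *Akr1c13*, an aldo-keto reductase, had 90.1, 77.2 and 69.8 CPM in #iii, against 21.8, 32.2 and 32.6 CPM in organoid AKP (1.44 ± 0.17). *Gsto1*, a glutathione transferase, had 162, 145 and 155 CPM in #iii, against 91.2, 96.9 and 84.4 CPM in organoid AKP (0.76 ± 0.09). *Nfe2l2* (NRF2) was higher by 0.47 ± 0.08. *Gstm1*, a glutathione transferase with close copies, had 15.2, 12.2 and 13.7 CPM in #iii, against 31, 40.3 and 39.1 CPM in organoid AKP (-1.44 ± 0.17). *Aldh1a3*, a retinaldehyde dehydrogenase, was lower (-1.35 ± 0.22). The list therefore held called members at both ends of its range. Among 35 genes of the amino acid stress and unfolded protein response 8 were higher and 2 lower (11 and 7 with all 6 organoid AKP libraries, and 1 lower without organoid replicate 2 or #iii replicate 1). Those higher included the folate enzyme *Mthfd2* (0.42 ± 0.08) and the stress factor *Ddit3* (0.56 ± 0.11).

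Genes at the cell surface and in the matrix were split. Of 26 integrins, laminins and collagens 7 were higher and 4 lower, against 4 higher and 9 lower with all 6 organoid AKP libraries. *Itgb4*, an integrin chain of hemidesmosomes, had 118, 151 and 137 CPM in #iii, against 96.7, 90.4 and 99.5 CPM in organoid AKP (0.51 ± 0.10). *Itga6*, the partner of *Itgb4*, was higher by 0.59 ± 0.07 and was not called with all 6 organoid AKP libraries. *Col18a1*, a basement membrane collagen, was lower (-0.73 ± 0.10). Of 25 matrix metalloproteinases and inhibitors 8 were lower and 1 higher, and 4 were lower without organoid replicate 2 or #iii replicate 3. *Timp3*, a matrix-bound inhibitor, had 109, 102 and 114 CPM in #iii, against 302, 199.9 and 244 CPM in organoid AKP (-1.20 ± 0.12). *Plau* (urokinase) had 12.4, 18.8 and 10.2 CPM in #iii, against 39.5, 26 and 42.1 CPM in organoid AKP (-1.31 ± 0.26). The libraries of the lines did not overlap for *Timp3* or *Plau*.

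Of 24 keratins and stratified epithelial genes 2 were higher and 4 lower, and of 21 S100 proteins and galectins 4 were higher and 5 lower, with medians of -0.03 in both lists. With all 6 organoid AKP libraries the keratin list had 5 higher and 7 lower and the galectin list 3 higher and 8 lower. The keratin list had 5 higher without #iii replicate 2 and 1 higher without organoid replicate 2 or #iii replicate 3, and the galectin list 2 higher without organoid replicate 2 or #iii replicate 1. *Krt6a*, a wound keratin, had 8.01, 6.03 and 9.47 CPM in #iii, against 43.9, 48.8 and 69.6 CPM in organoid AKP (-2.85 ± 0.24). *Krt14*, a basal keratin, had 70.7, 54.3 and 73 CPM in #iii, against 119.8, 118 and 148 CPM in organoid AKP (-0.99 ± 0.13). *Lgals1* (galectin 1) had 51.4, 40.2 and 53 CPM in #iii, against 123, 105 and 110.3 CPM in organoid AKP (-1.24 ± 0.11). *Lgals4*, a galectin of intestinal epithelium, was instead higher (0.59 ± 0.08). *Igf2bp2*, an oncofetal RNA-binding protein, had 50.6, 55.8 and 56.1 CPM in #iii, against 159, 154 and 145 CPM in organoid AKP (-1.49 ± 0.09), while its relative *Igf2bp1* was higher (0.72 ± 0.18). The insulin receptor substrate *Irs1* was lower (-1.08 ± 0.17) and *Grb10*, an imprinted inhibitor of insulin signalling, had 7.18, 6.22 and 8.07 CPM in #iii, against 2.04, 0.325 and 1.35 CPM in organoid AKP (2.48 ± 0.40).

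The interferon list of 31 genes had 4 lower and 0 higher (8 lower with all 6 organoid AKP libraries), among them *Isg15* (-1.01 ± 0.21), *Bst2* (-1.23 ± 0.24) and *Irf1* (-0.62 ± 0.14). The 24 genes of MHC class I presentation had 1 higher and 1 lower, the lower being *B2m* (-0.54 ± 0.11). Of 36 colonocyte genes 3 were higher and 3 lower, and of 20 goblet cell genes 3 were lower and 0 higher. The goblet list had a median log2 fold change of -0.87, and its 3 calls, *Spink4*, *Reg4* and *Muc1*, each exceeded 1 log2 unit. The goblet count was 1 without organoid replicate 2 and 0 with all 6 organoid AKP libraries, where 2 were higher. *Muc1* also lost its call with DESeq2 and without #iii replicate 2, organoid replicate 1 or organoid replicate 3. *Reg4* also lost its call without #iii replicate 1 and when only the compared libraries were fitted. The 9 mitochondrially encoded genes tested had 0 calls. Of 29 fetal-like and regenerative genes 10 were higher and 7 lower, but 2 were higher without organoid replicate 2, 5 without #iii replicate 3, 6 without #iii replicate 1 and 5 when only the compared libraries were fitted.

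**Figure D4:**
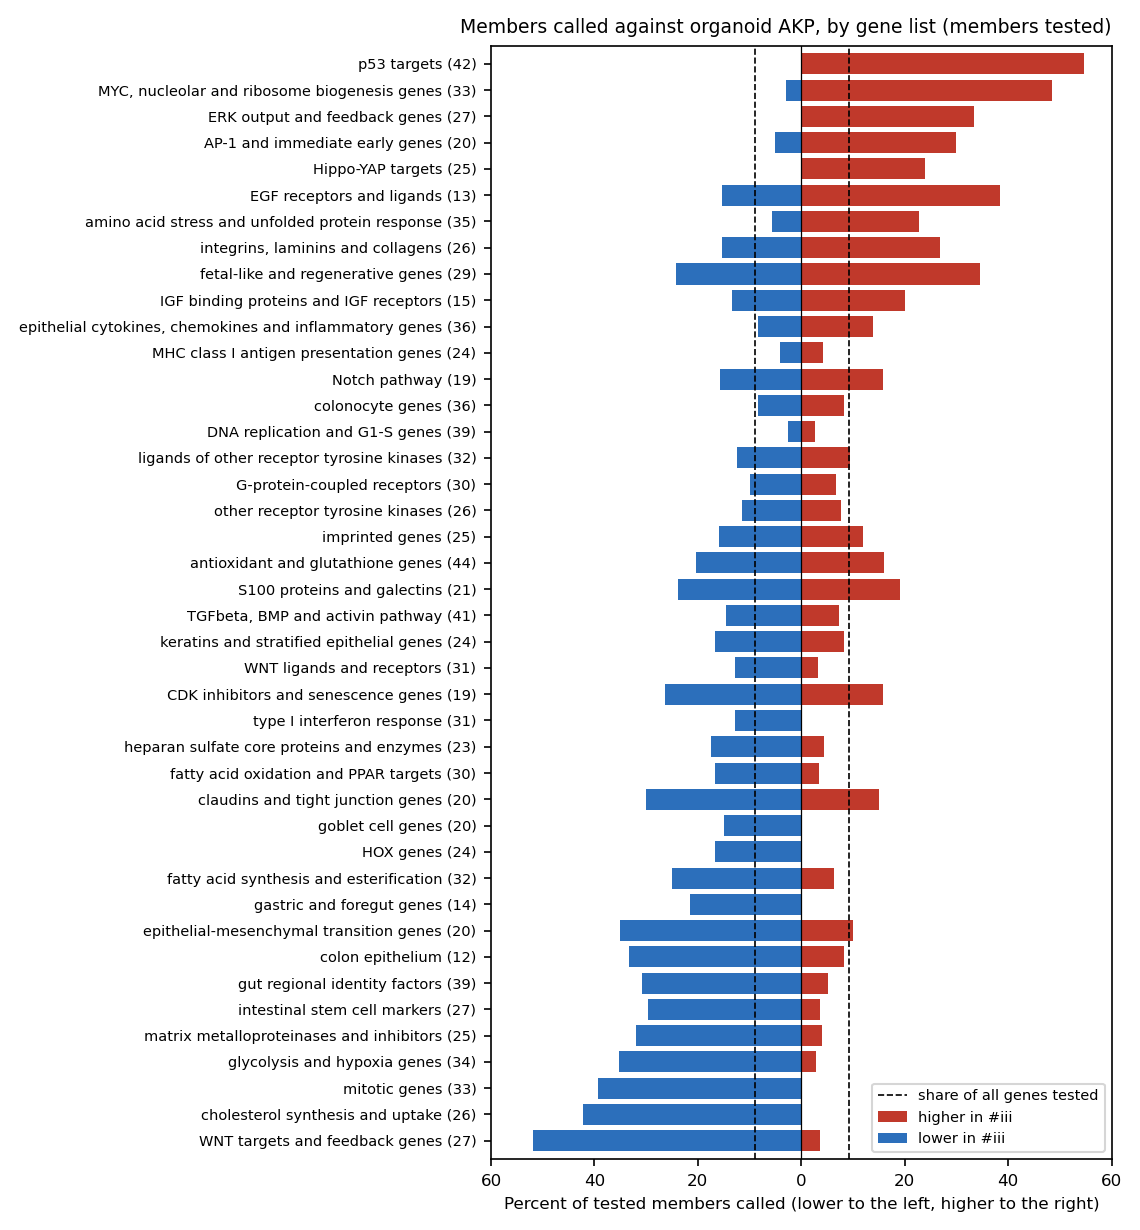
Percent of tested members called higher (right, red) or lower (left, blue) in #iii than in organoid AKP, for lists with at least 12 members tested (number in brackets). Dashed lines give the shares over all genes, 9.27% higher and 8.96% lower. The p53 targets reach furthest to the right (23 of 42) and the WNT targets furthest to the left (14 of 27).

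The lumen lines allow #iii to be set against other mini-colon lines of the same letter. Against the mean of #i and #ii, 1459 genes were higher in #iii (10.7%) and 1228 lower (9.03%). Without #iii replicate 2 these counts were 969 and 819. Both comparisons use the same #iii libraries, so their values are given side by side and not as support of each other.

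Of the 42 p53 targets, 27 were higher in #iii than in the lumen lines and 1 lower, against 10.7% and 9.03%. *Cdkn1a* averaged 311 CPM in #iii, against 53.8 and 27.8 CPM in #i and #ii (3.003 ± 0.12 log2 units, adjusted p = 5.77e-17). *Ccng1* averaged 115 CPM in #iii, against 27.4 and 32 CPM (1.97 ± 0.10). *Trp53* was higher by 1.92 ± 0.24. *Cdkn2a* was lower (-4.13 ± 0.11, adjusted p = 7.26e-39), and so was *Cdkn2b* (-3.99 ± 0.26, adjusted p = 3.75e-19).

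*Lgr5* averaged 31.3 CPM in #iii, against 36.1 and 30.7 CPM in #i and #ii, and was not called (-0.06 ± 0.14, adjusted p = 0.818). Of the 27 WNT targets 2 were higher and 3 lower than in the lumen lines. *Rhox5* was not called either (0.69 ± 0.31, adjusted p = 0.124). *Areg* was higher in #iii than in the lumen lines (0.95 ± 0.15), as was *Ereg* (0.999 ± 0.11), and *Hbegf* was not called (-0.08 ± 0.09, adjusted p = 0.608). Mitotic genes had 7 higher and 2 lower in #iii than in the lumen lines, and cholesterol genes 8 higher and 0 lower. The interferon list had 12 lower of 31.

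**Figure D5:**
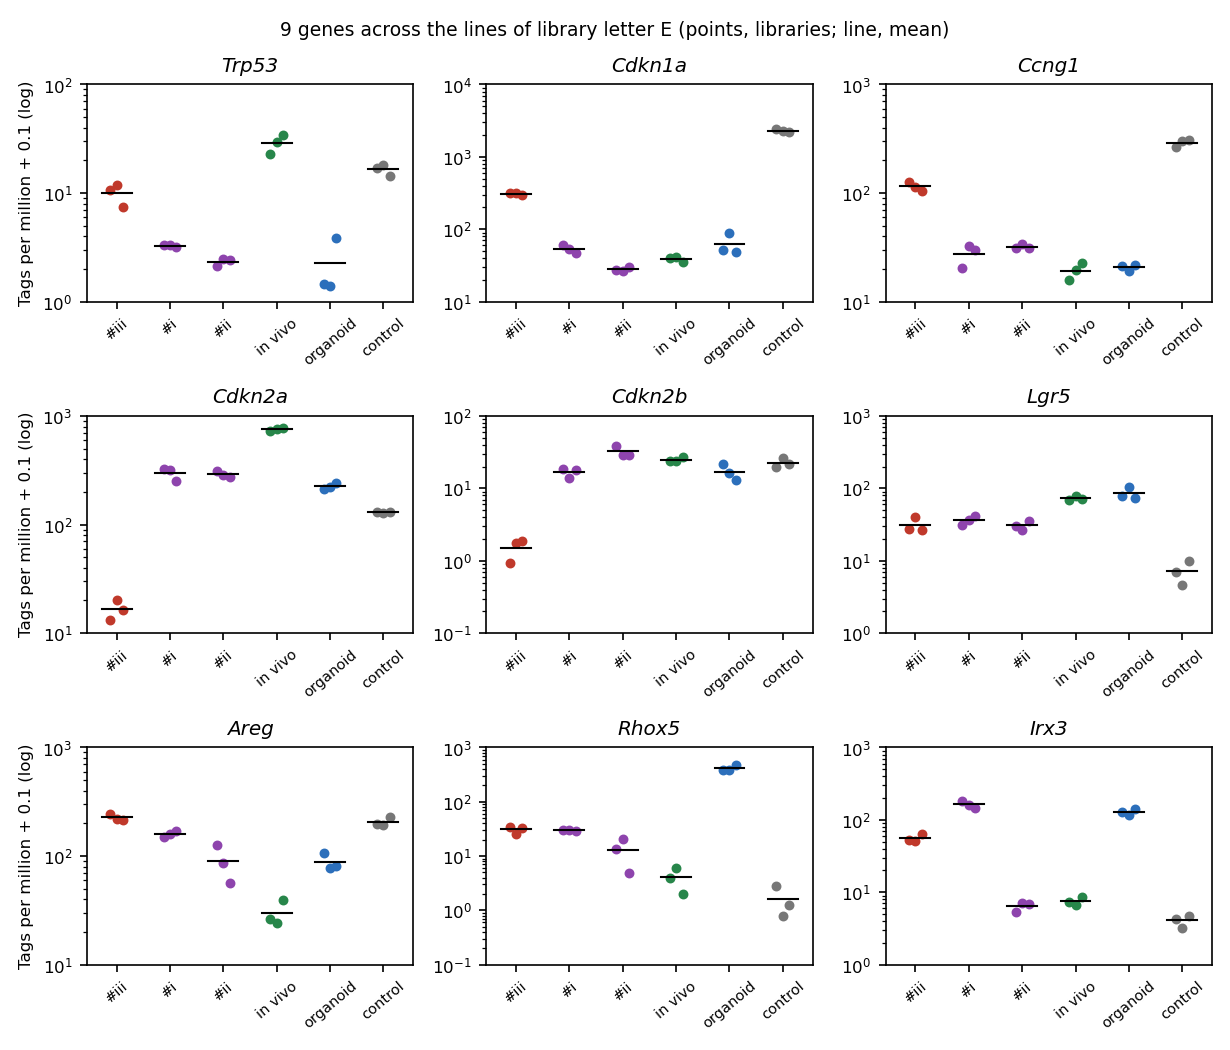
CPM + 0.1 on log axes for 9 genes in the lines of letter E, with each point a library and each bar the mean of 3 libraries. The p53 targets *Cdkn1a* and *Ccng1* are highest in control and next in #iii, *Cdkn2a* and *Cdkn2b* are lowest in #iii, and *Lgr5* in #iii lies at the level of #i and #ii.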

How the data were processed

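The series measured bulk RNA of mouse colon organoid lines as 3′ mRNA tag libraries (QuantSeq). The authors mapped the reads with STAR to GRCm39 and deposited raw counts per Ensembl gene for each library. The annotation, the counting tool and the strand setting are not given in the sources used here, so overlapping genes cannot always be told apart. The 33 libraries held 32285 gene IDs. Of these, 31674 were named from GENCODE M39. IDs without a name (6.85% of counts, 6.77% in a single ID) stayed in library sizes and tests where they passed the filter below. They were left out of the genes named here.

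Genes with at least 1 CPM in 3 libraries were kept (13606). All 33 libraries were fitted together in edgeR 4.0.16 (TMM scaling, quasi-likelihood test, Benjamini-Hochberg adjustment, R 4.3.3), with 1 coefficient per line and letter, so that all lines share 1 estimate of the spread. The contrasts were #iii minus organoid AKP of letter E, and #iii minus the mean of #i and #ii. The authors' own analysis used edgeR and limma-voom in R 4.1.2. The alternatives were DESeq2 1.42.0, DESeq2 size factors, limma-voom 3.58.1, no low-count filter, the compared libraries alone, all 6 organoid AKP libraries, a replicate block and leaving out each library. The test was checked on simulated counts.

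The genes named are the 12 called genes with the largest fold changes each way (5 CPM or more on average in the higher line, libraries of the lines not overlapping, no predicted genes or pseudogenes), up to 4 called members of each of 54 gene lists, the targeted loci and further list members. The members and the lists were chosen with earlier results of these data known. Other lines of the series entered the fit and are given by their means. Some genes that this rule names are not reported here.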

Additional observations from a re-analysis of the deposited data

Results flagged for a closer look

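The 167 tested genes named in the text were searched for a further pattern, and other genes were not. In 4 of them, every #iii library and every lumen-line library stood on opposite sides of organoid AKP. These 4 were also called in both comparisons, against organoid AKP and against the mean of #i and #ii. The calls are by edgeR's quasi-likelihood test with Benjamini-Hochberg adjustment. *Cdkn2a* averaged 16.4 CPM in #iii, against 299 and 290.1 CPM in #i and #ii, a log2 difference of -4.13 ± 0.11 (adjusted p = 7.26e-39), with 227 CPM in organoid AKP. *Timp3* averaged 108 CPM in #iii, against 352 and 562 CPM, a log2 difference of -2.04 ± 0.11 (adjusted p = 3.05e-18), with 249 CPM in organoid AKP. *Psrc1*, a p53 target that acts in chromosome congression, averaged 31.2 CPM in #iii, against 7.87 and 5.15 CPM, a log2 difference of 2.29 ± 0.17 (adjusted p = 2.34e-16), with 12.3 CPM in organoid AKP. *Snrpn*, an imprinted splicing gene, averaged 8.2 CPM in #iii, against 0.503 and 0.648 CPM, a log2 difference of 3.73 ± 0.34 (adjusted p = 3.05e-13), with 3.17 CPM in organoid AKP.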

How the results depend on the processing

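Against organoid AKP, DESeq2 gave 1138 genes higher and 1206 lower, DESeq2 size factors 1200 and 1275, limma-voom 1245 and 1178, no low-count filter 1195 and 1225, and the 6 compared libraries alone 953 and 1066 (892 and 1019 with their own filter). With all 6 organoid AKP libraries the counts were 2041 and 2116, and the directions of *Btc* (-0.036) and *Hmga2* (-0.25) turned. Leaving out 1 library gave 959 to 1191 higher and 899 to 1073 lower, and against the lumen lines 969 to 1396 higher and 819 to 1267 lower. The other alternatives for the lumen lines gave 1104 to 1507 higher and 1069 to 1308 lower. With the replicate number as a block, 1299 genes were higher and 1307 lower than in organoid AKP, and 1104 and 1069 than in the lumen lines. The labels do not say that a number pairs libraries, and same-numbered libraries of #iii and organoid AKP had correlations of 0.061, 0.199 and 0.143 over 9630 genes. Each library correlated best with its own number, which is a hint from the data only. Of 145 called genes named in the text, 115 stayed called with the same sign in every alternative run for them, 12 lost their call without organoid replicate 2 and 15 with all 6 organoid AKP libraries. Counts of a few tags limit the lowest genes, and intervals cover counting error only.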

Other observations

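Other gene groups gave smaller sets of calls between #iii and organoid AKP, tested by edgeR's quasi-likelihood test with Benjamini-Hochberg adjustment. Of 20 epithelial-mesenchymal transition genes 2 were higher and 7 lower. *Tpm2*, a tropomyosin, had 13, 8.96 and 8.42 CPM in #iii, against 26.9, 26.3 and 25.1 CPM in organoid AKP (-1.37 ± 0.19, adjusted p = 1.13e-07), while *Tpm1* was higher (0.44 ± 0.08). *L1cam*, a cell adhesion molecule, was lower (-0.87 ± 0.16). The count of lower genes was 4 without organoid replicate 2, without #iii replicate 3 or when only the compared libraries were fitted.

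Of 41 genes of the TGFbeta, BMP and activin pathway 3 were higher and 6 lower, and 14 were lower with all 6 organoid AKP libraries. The count of lower genes was 3 without organoid replicate 2, and 5 were higher without organoid replicate 3. *Id1*, *Id2* and *Id3*, inhibitors of helix-loop-helix factors that BMP signals induce, were lower (-0.75 ± 0.18, -0.55 ± 0.10 and -2.01 ± 0.40). *Id1* lost its call without organoid replicate 2, and *Id3* when only the compared libraries were fitted. The ligand *Bmp7* was higher (1.03 ± 0.27), with 9.95, 10.2 and 7.72 CPM in #iii, against 4.77, 4.23 and 4.85 CPM in organoid AKP. Of 19 Notch pathway genes 3 were higher and 3 lower. The ligand *Jag1* was higher (0.71 ± 0.11) and the receptor *Notch1* lower (-1.23 ± 0.30).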
